A study of Mus musculus with 4 samples.

Results

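Pgr-positive hormone-sensing luminal cells are the mammary epithelial cells in which the progesterone receptor transcript was detected with at least 2 unique molecular identifiers (UMIs, each marking 1 captured transcript). They are called Pgr 2+ cells here. They were chosen by measured values: a barcode had to score high on a panel of 8 hormone-sensing genes (Prlr, Esr1, Pgr, Areg, Cited1, Foxa1, Fxyd2 and Ly6a), above 0.3 on a mean of standardised log values and at least 0.5 above panels of 8 basal and 8 luminal progenitor genes, and to hold fewer than 4 UMIs of 5 cell cycle genes together. This gave 5056 Pgr 2+ cells of 36884 barcodes, 13.7% of all and 51.5% of the 9826 non-cycling hormone-sensing cells. The 2253 hormone-sensing cells with no Pgr UMI, called Pgr 0 cells, were the cells of comparison, and the 2517 cells with exactly 1 Pgr UMI were left out of it.

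The study sorted cells of the mouse mammary gland by flow cytometry and profiled them by droplet-based 3′ single-cell RNA sequencing, to compare the transcriptomes of control and Zeb1 MSKO mice. The labels do not spell out MSKO, the promoter of any Cre, the sorting markers or the genotype of the controls beyond the word control, and they give 1 strain, C57BL/B6, for all samples. There were 4 libraries, namely Zeb1 MSKO at 8 weeks, Zeb1 MSKO at 9 weeks, control at 8 weeks and control at 9 weeks, and they held 769, 1345, 1546 and 1396 Pgr 2+ cells in that order. Each genotype therefore had 2 libraries that differ in age. Nothing in the labels says how many animals a library holds, so p-values measure the spread between these libraries. Within a genotype, age cannot be told apart from any other difference between its libraries. Wherever 2 values are given for a genotype below, the 8-week library comes before the 9-week library.

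The progesterone receptor is a ligand-activated transcription factor of the nuclear receptor family. In the mammary gland it is made by a subset of luminal cells that also carry the estrogen receptor, Esr1, which induces it. These cells seldom divide themselves and act on their neighbours through secreted factors: Areg, an EGF receptor ligand, Tnfsf11 (RANK ligand), Wnt4 and Calca (calcitonin) are known products of hormone-stimulated luminal cells. Prlr, the prolactin receptor, makes the same cells responsive to a pituitary hormone.

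The libraries held between 7627 and 9790 barcodes with a median of 6376 to 10530 UMIs, and the Zeb1 MSKO library at 8 weeks was the shallowest. Simulated-doublet scores called 3.87% to 6.70% of the barcodes of a library doublets, among them 317 Pgr 2+ cells. Of the Pgr 2+ cells 7.54% and 8.33% were called doublets in Zeb1 MSKO and 5.56% and 4.37% in control. For Pgr 0 cells these shares were 3.46% and 2.74% in Zeb1 MSKO and 1.53% and 1.83% in control, lower in every library. Of 36194 distinct barcode sequences 682 occurred in more than 1 library, and 11 sequences belonged to Pgr 2+ cells in 2 libraries. Zeb1, the targeted gene, had 557 and 86 UMIs (6.89 and 0.704 UMIs per 1000000, CPM) over all barcodes of the libraries labelled Zeb1 MSKO, against 397 and 44 UMIs (3.84 and 0.501 CPM) over those labelled control. It was thus not lower in the libraries labelled Zeb1 MSKO. The sources do not name the deleted part, and a 3′ tag outside it checks nothing, so genotypes are given below as labelled. Pgr 2+ cells themselves held 11 and 1 Zeb1 UMIs in Zeb1 MSKO and 12 and 3 in control.

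The hormone-sensing panel was present in every library, at levels that differed widely between libraries. As these genes chose the cells, their values are a description. Pgr itself stood at 214 and 157 CPM in Zeb1 MSKO and 215 and 198 CPM in control (CPM scaled by the trimmed mean of M-values, TMM, here and below), lowest in Zeb1 MSKO at 9 weeks. Prlr had 1746 and 1628 CPM in Zeb1 MSKO and 1697 and 2499 CPM in control, and at least 1 Prlr UMI was found in 99.2% or more of the Pgr 2+ cells of each library. Esr1 reached 32.5 and 54.0 CPM in Zeb1 MSKO and 36.9 and 34.9 CPM in control, highest in Zeb1 MSKO at 9 weeks. The share of Pgr 2+ cells with an Esr1 UMI was 39.0% and 59.4% in Zeb1 MSKO and 41.1% and 41.5% in control. Basal and luminal progenitor gates held non-cycling barcodes above 0.3 on their own panel and at least 0.5 above the other panels. They were thus chosen against the hormone-sensing panel, so low detection of its genes there follows in part from the choice. In the luminal progenitor gate the Esr1 share was 2.46% and 2.94% in Zeb1 MSKO and 2.32% and 3.44% in control, at median depths of 7677.5, 7516, 8181.5 and 8107 UMIs. Esr1 was detected more often in the Pgr 2+ cells than in that gate in every library, which is a description, as Esr1 helped to choose both. The Pgr 2+ cells were also deeper, with medians of 16250 and 19002 UMIs in Zeb1 MSKO and 14904 and 16013 in control.

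Areg differed most by age, and Cited1, Fxyd2 and Ly6a set 1 library apart. Areg had 4356 and 2159.5 CPM in Zeb1 MSKO and 3968 and 1514 CPM in control, with the 8-week library of each genotype above its 9-week library. Its median per Pgr 2+ cell was 57 and 32 UMIs in Zeb1 MSKO and 51 and 11 in control, and 1 cell in 10 held at least 156, 91, 128.5 and 69.5. Areg UMIs were found in 84.3% to 98.7% of the Pgr 2+ cells of a library. The median depth was 14904 to 19002 UMIs per Pgr 2+ cell, against 5624 to 8181.5 UMIs per cell of the basal and luminal progenitor gates, where the share of cells with an Areg UMI was 11.7% to 36.0% and 12.1% to 39.1%, with a median of 0 Areg UMIs per cell. Both gates were chosen against the panel that holds Areg. Cited1, a transcriptional cofactor of the estrogen receptor, had 302 and 1544 CPM in Zeb1 MSKO and 573 and 349 CPM in control. Fxyd2, which modulates the sodium pump, had 1095 and 137 CPM in Zeb1 MSKO and 1237 and 1934 CPM in control. Ly6a, which encodes the surface antigen Sca1, had 422 and 1207 CPM in Zeb1 MSKO and 743 and 495 CPM in control. The Zeb1 MSKO library at 9 weeks stood apart in all 3, with the highest Cited1 and Ly6a and the lowest Fxyd2. Foxa1, the pioneer factor that opens chromatin for the estrogen receptor, varied less, with 124 and 92.2 CPM in Zeb1 MSKO and 81.2 and 71.4 CPM in control.

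**Figure D1:**
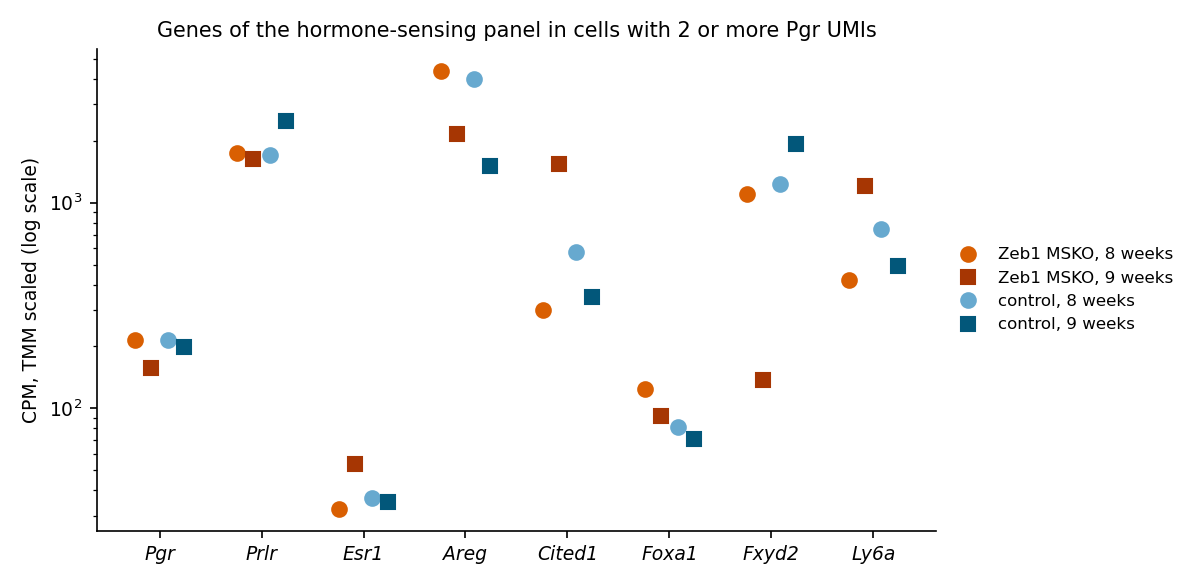
Level of each gene of the hormone-sensing panel in Pgr 2+ cells (y axis, TMM-scaled CPM on a log scale), 1 point per library. Fxyd2 ranged between 137 and 1934 CPM and Pgr between 157 and 215 CPM, and circles (8 weeks) lie above squares (9 weeks) for Areg in both genotypes.

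Among Pgr 2+ cells the Pgr count was low and skewed. The median was 3 UMIs and the highest 14, with 2061 cells at exactly 2 UMIs and 865 at 5 or more. The threshold cuts through this range: cells with 1 Pgr UMI, just outside it, had median depths of 13249 and 16937 UMIs in Zeb1 MSKO and 13367 and 14164 in control, and cells with 2, just inside it, had 15562 and 18099 in Zeb1 MSKO and 14298 and 15232 in control. Part of the contrast between classes therefore runs along depth. Pgr 0 cells had medians of 10711 and 14867 UMIs in Zeb1 MSKO and 11781 and 13479 in control, below Pgr 2+ cells in each library. The median panel score was 1.21 in Pgr 2+ cells and 0.848 in Pgr 0 cells, and 26 Pgr 2+ cells scored below 0.4. Pgr is itself a gene of that panel, so the higher score of Pgr 2+ cells follows in part from the choice.

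The Pgr 2+ share of non-cycling hormone-sensing cells was 59.9% and 39.8% in Zeb1 MSKO, against 56.3% and 57.7% in control. The 95% Wilson intervals, which cover counting error only, were 57.2% to 62.6% and 38.2% to 41.5% in Zeb1 MSKO and 54.4% to 58.1% and 55.7% to 59.6% in control. The means were 49.9% ± 14.2 in Zeb1 MSKO and 57.0% ± 0.994 in control (SD, n = 2 libraries each), and the difference of −7.09 percentage points gave p = 1 in a 2-sided exact permutation test, whose smallest p with 2 against 2 libraries is 0.33. The difference turned to 2.95 points when Zeb1 MSKO at 9 weeks was left out. At 8 weeks the Zeb1 MSKO share was 3.66 points above control, and at 9 weeks it was 17.8 points below. With every cell thinned to 2000 UMIs, 27.9% and 15.2% of the Zeb1 MSKO cells and 27.3% and 24.2% of the control cells had a Pgr UMI. The library order was the same at equal depth except that the control libraries changed places. In the basal gate a mean of 0.273% of cells in Zeb1 MSKO and 0.418% in control had 2 or more Pgr UMIs, and in the luminal progenitor gate 0.374% in Zeb1 MSKO and 0.214% in control. Both gates were chosen against the panel that holds Pgr, so low shares there follow in part from the choice.

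**Figure D2:**
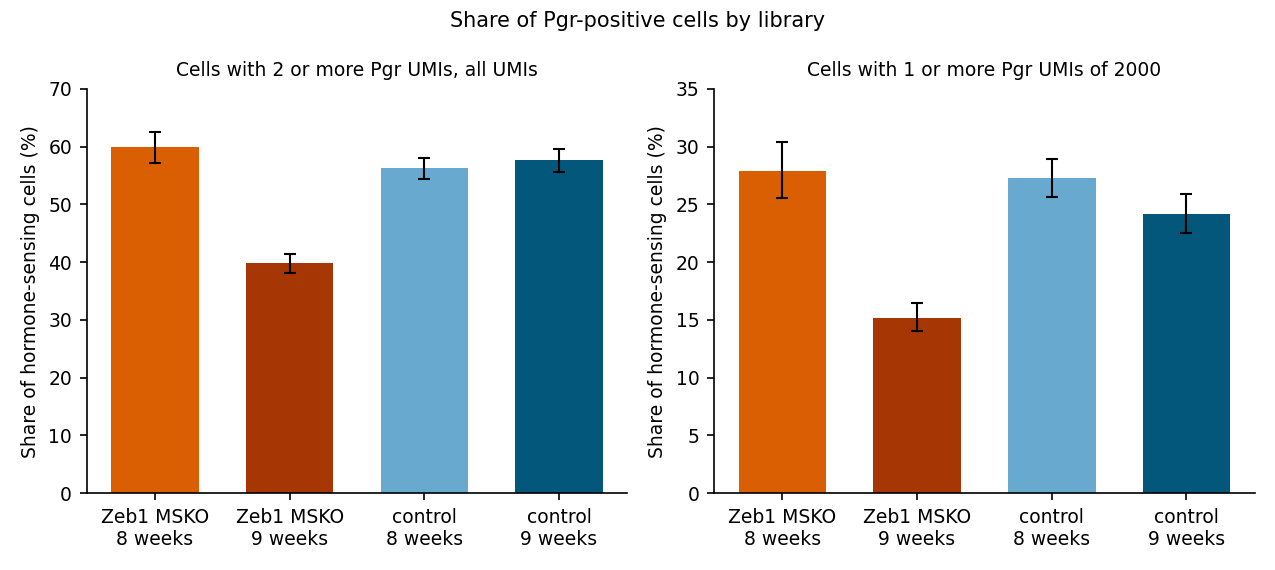
Share of non-cycling hormone-sensing cells that were Pgr 2+ (left, y axis in %) or had at least 1 Pgr UMI among 2000 randomly drawn UMIs (right, y axis in %), 1 bar per library with its 95% Wilson interval. The Zeb1 MSKO library at 9 weeks is lowest in both panels, at 39.8% and 15.2%.

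A small group of genes differed between Pgr 2+ and Pgr 0 cells in 3 overlapping choices of cells, among them Gm16485, a predicted gene next to Pgr. Counts were summed per library and class and tested with edgeR's quasi-likelihood test with the library as a block. It called 226 of 11981 genes (1.89%), 32 higher (0.267%) and 194 lower (1.62%) in Pgr 2+ cells. In all, 10.1% of the tested genes were higher and 8.68% lower in all 4 libraries. The largest lower calls were of stromal genes, and some Pgr 0 barcodes were not epithelial. A pair of narrower cell sets, chosen after seeing the data, was therefore tested as well. Epithelial barcodes alone (at least 10 UMIs of Krt8, Krt18 and Epcam and fewer than 10 of fibroblast, endothelial and leukocyte markers) gave 179 calls of 11776 genes (1.52%), 102 higher (0.866%) and 77 lower (0.654%). When doublets were also removed and both classes drawn to equal depth, 29 of 10256 genes were called (0.283%), 14 higher (0.137%) and 15 lower (0.146%). This set was 1 random draw, with 163 and 725 cells per class in Zeb1 MSKO and 427 and 363 in control. The part of these smaller numbers in calls lost at equal depth was not tested. Of the 226 calls 59 were shared with the epithelial set (26.1% of one list, 33.0% of the other) and 16 with the equal-depth set (7.08% and 55.2%). The 15 genes called in all 3 sets were 8 higher (Cxcl5, Lce6a, Ltc4s, Gm16485, Man1a, Wnt5a, Fam3c and Tmem86a) and 7 lower (Fgb, Rcan1, Rgs2, Gsta4, B2m, Cldn10 and Actb).

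Gm16485 is a predicted gene, annotated as protein-coding, at chr9:8971791-8975773 on the plus strand of mm10, 3179 bases beyond the end of Pgr (chr9:8899833-8968611, same strand). It had 27.2 and 23.5 CPM in Zeb1 MSKO and 26.3 and 30.2 CPM in control in Pgr 2+ cells, against 19.4 and 14.2 CPM in Zeb1 MSKO and 20.8 and 21.7 CPM in control in Pgr 0 cells. All 4 libraries were higher in Pgr 2+ cells, by a log2 fold change of 0.52 ± 0.08 SE (edgeR adjusted p = 0.0057), and by 0.60 at equal depth. DESeq2 called Gm16485 in the rule-defined cells (adjusted p = 0.0058) but not among epithelial barcodes (0.056) or at equal depth (0.17). The share of cells with a Gm16485 UMI was 36.2% and 34.3% in Zeb1 MSKO and 31.6% and 37.6% in control for Pgr 2+ cells, against 19.05% and 17.8% in Zeb1 MSKO and 19.8% and 23.3% in control for Pgr 0 cells. Every library was thus higher in Pgr 2+ cells by both measures, though these cells were also deeper. Its level differed with the Pgr count of the cell: in control at 9 weeks it was 21.8, 25.3, 26.7, 28.2, 33.3 and 37.2 CPM at 0, 1, 2, 3, 4 and 5 or more Pgr UMIs. In control at 8 weeks it was 21.4, 20.1, 23.2, 26.3, 31.1 and 32.7 CPM, and in Zeb1 MSKO at 8 weeks 19.4, 20.9, 25.6, 26.0, 25.6 and 32.1 CPM. The rise was thus not steady in these 2 libraries, although cells with 5 or more Pgr UMIs had the most in all 4. In the basal and luminal progenitor gates it lay between 0.546 and 1.30 CPM. A UMI from a Pgr transcript that runs past the annotated end of the gene would be counted as Gm16485, and these counts cannot tell the 2 apart.

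Wnt5a, a ligand of the non-canonical Wnt pathway, was the 1 gene of the progesterone effector list called in the rule-defined cells. It had 113 and 36.9 CPM in Zeb1 MSKO and 71.4 and 82.9 CPM in control in Pgr 2+ cells, against 82.8 and 34.0 CPM in Zeb1 MSKO and 58.5 and 70.3 CPM in control in Pgr 0 cells. Pgr 2+ cells were higher in every library, by 0.26 ± 0.06 SE on the log2 scale (edgeR adjusted p = 0.048), and by 0.32 at equal depth. Of the 4 fits of the rule-defined cells that leave out 1 library, the 1 without Zeb1 MSKO at 9 weeks called Wnt5a, and the other 3 did not. DESeq2 called it in none of the 3 cell sets (adjusted p = 0.077 in the rule-defined cells, 0.33 among epithelial barcodes and 0.48 at equal depth). The gap was smallest in Zeb1 MSKO at 9 weeks, where Wnt5a was also lowest in both classes and where cells with 5 or more Pgr UMIs had 30.9 CPM, against 32.6 CPM in cells with none. The share of cells with a Wnt5a UMI was 68.8% and 41.5% in Zeb1 MSKO and 54.2% and 61.1% in control for Pgr 2+ cells, and 2.28% and 1.68% in Zeb1 MSKO and 1.09% and 1.62% in control for the luminal progenitor gate.

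**Figure D3:**
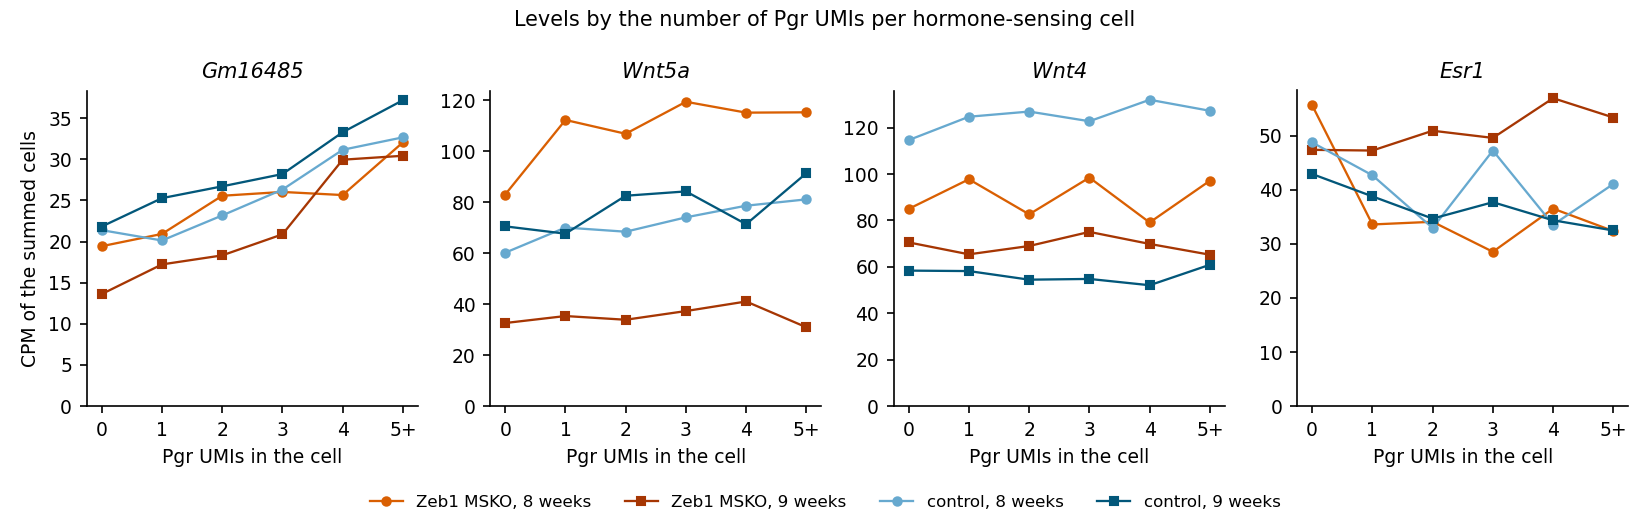
Level of Gm16485, Wnt5a, Wnt4 and Esr1 (y axes, CPM of the summed cells) by the number of Pgr UMIs per hormone-sensing cell (x axes), 1 line per library. Gm16485 is highest at 5 or more Pgr UMIs in all 4 libraries, between 30.4 and 37.2 CPM, whereas the Wnt4 lines keep their order and show no common slope.

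The other 6 genes called higher in all 3 cell sets varied strongly between libraries. Man1a, a Golgi mannosidase of N-glycan trimming, had 76.6 and 105 CPM in Zeb1 MSKO and 55.2 and 115 CPM in control in Pgr 2+ cells, against 63.8 and 83.1 CPM in Zeb1 MSKO and 47.7 and 93.7 CPM in control in Pgr 0 cells. Its log2 fold change was 0.28 ± 0.05 SE (edgeR adjusted p = 0.0071) and 0.46 at equal depth, in 4 of 4 libraries. Lce6a, of the late cornified envelope family, had 36.7 and 0.817 CPM in Zeb1 MSKO and 3.17 and 31.5 CPM in control in Pgr 2+ cells, against 17.9 and 0.744 CPM in Zeb1 MSKO and 1.497 and 18.8 CPM in control in Pgr 0 cells, a log2 fold change of 0.83 ± 0.13 SE (edgeR adjusted p = 0.0051). It was near 0 in 1 library of each genotype and higher in Pgr 2+ cells in all 4. Cxcl5, a neutrophil-attracting chemokine, had 9.52 and 2.14 CPM in Zeb1 MSKO and 34.2 and 1.81 CPM in control in Pgr 2+ cells, against 6.46 and 0.541 CPM in Zeb1 MSKO and 15.3 and 1.09 CPM in control in Pgr 0 cells, a difference of 1.12 ± 0.18 SE. Ltc4s, the synthase of leukotriene C4, had 3.89 and 14.9 CPM in Zeb1 MSKO and 2.002 and 9.66 CPM in control in Pgr 2+ cells, against 3.04 and 9.06 CPM in Zeb1 MSKO and 1.16 and 6.16 CPM in control in Pgr 0 cells, a difference of 0.67 ± 0.13 SE. Both were low-count genes that were higher in Pgr 2+ cells of every library. DESeq2 called Ltc4s in none of the 3 cell sets (adjusted p = 0.39 in the rule-defined cells, 0.41 among epithelial barcodes and 0.71 at equal depth). Fam3c, a secreted cytokine-like protein, and Tmem86a, a lysoplasmalogenase, rose by 0.23 ± 0.04 SE and 0.18 ± 0.04 SE.

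The 7 genes called lower in all 3 sets included regulators of calcium and G protein signalling. Rcan1, an inhibitor of calcineurin, had 42.1 and 27.6 CPM in Zeb1 MSKO and 45.8 and 28.3 CPM in control in Pgr 2+ cells, against 58.5 and 34.1 CPM in Zeb1 MSKO and 68.2 and 32.4 CPM in control in Pgr 0 cells. Pgr 2+ cells were lower in every library, with a log2 fold change of −0.39 ± 0.07 SE (edgeR adjusted p = 0.013). Rgs2, which damps G protein signalling, had 65.5 and 68.4 CPM in Zeb1 MSKO and 8.22 and 31.5 CPM in control in Pgr 2+ cells, against 82.5 and 89.2 CPM in Zeb1 MSKO and 12.1 and 35.3 CPM in control in Pgr 0 cells, a difference of −0.34 ± 0.06 SE. Fgb, the fibrinogen beta chain, had 69.1 and 99.8 CPM in Zeb1 MSKO and 125 and 97.9 CPM in control in Pgr 2+ cells, against 83.6 and 146 CPM in Zeb1 MSKO and 189 and 108 CPM in control in Pgr 0 cells, a difference of −0.41 ± 0.07 SE. B2m, the light chain of class I MHC molecules, had 1295 and 1247 CPM in Zeb1 MSKO and 1587 and 1176 CPM in control in Pgr 2+ cells, against 1642 and 1454 CPM in Zeb1 MSKO and 1939.7 and 1246 CPM in control in Pgr 0 cells, a difference of −0.23 ± 0.04 SE, and was lower in 4 of 4 libraries. Gsta4, a glutathione transferase, differed by −0.25 ± 0.05 SE, Cldn10, a claudin, by −0.19 ± 0.04 SE and Actb, beta-actin, by −0.14 ± 0.03 SE.

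These calls were sensitive to single libraries, and they compare classes within a library: without the library block edgeR called none, with 155 genes at an unadjusted p under 0.05. Gm16485 alone was called in the rule-defined cells whichever library was left out. Of the 15 genes, 12 lost the call there without control at 8 weeks, 7 without control at 9 weeks, 6 without Zeb1 MSKO at 9 weeks and 2 without Zeb1 MSKO at 8 weeks. Among equal-depth cells 9, 8, 8 and 3 were no longer called without the same libraries, counting Cxcl5, which was too low to be tested without either 8-week library. Man1a and Tmem86a were called in all 4 of these fits. Gm16485 was not called without Zeb1 MSKO at 9 weeks, either at equal depth or among epithelial barcodes. The direction held in every fit in which a gene was tested. DESeq2 called 12 of the 15 in the rule-defined cells, 10 in the epithelial set and 1, Man1a, at equal depth.

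Among the known paracrine products of progesterone signalling, Wnt5a alone passed the test in the rule-defined cells. Of 8 tested effector genes 1 was thus called higher, where 0.267% of all genes were. Of these 8, 7 had a positive fold change, where 51.4% of all genes did, and the median was 0.18 against 0.00 over all genes tested. Among epithelial barcodes 2 of 8 were called higher, Wnt5a and the chemokine Cxcl12, where 0.866% of all genes were. There 6 of 8 were positive, with a median of 0.20, where 49.8% of all genes were positive. At equal depth 1 of 5 was called higher, Wnt5a, where 0.137% of all genes were. There 3 of 5 were positive, with a median of 0.07, where 48.4% of all genes were positive. Cxcl12 was mainly a transcript of the basal gate, with 264 and 146 CPM in Zeb1 MSKO and 171 and 205 CPM in control, against 36.2 and 2.14 CPM in Zeb1 MSKO and 8.20 and 5.49 CPM in control over all hormone-sensing cells. In the epithelial set 6 of 12 basal markers were called higher as well, and their part in the Cxcl12 call was not tested. Wnt4, the ligand that carries the progesterone signal to basal cells, had 89.3 and 72.9 CPM in Zeb1 MSKO and 122 and 55.4 CPM in control in Pgr 2+ cells, against 84.7 and 73.5 CPM in Zeb1 MSKO and 111 and 58.2 CPM in control in Pgr 0 cells, a difference of 0.03 ± 0.05 SE (edgeR adjusted p = 0.93). Its levels differed between libraries far more than between classes. The share of cells with a Wnt4 UMI was 63.5% and 66.4% in Zeb1 MSKO and 74.1% and 53.0% in control for Pgr 2+ cells, and 9.79% and 4.42% in Zeb1 MSKO and 4.72% and 3.60% in control for the luminal progenitor gate. Calca had 249 and 19.8 CPM in Zeb1 MSKO and 52.3 and 11.5 CPM in control in Pgr 2+ cells, against 304 and 20.7 CPM in Zeb1 MSKO and 36.4 and 6.52 CPM in control in Pgr 0 cells. It did not pass the test (edgeR adjusted p = 0.94) and ran along age, with the 8-week library above the 9-week library in both genotypes and both classes.

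Tnfsf11, which encodes RANK ligand, was scarce. Pgr 2+ cells held 24 and 7 UMIs in Zeb1 MSKO and 38 and 1 in control, or 1.90 and 0.272 CPM in Zeb1 MSKO and 1.58 and 0.0431 CPM in control. The share of Pgr 2+ cells with a Tnfsf11 UMI was 2.73% and 0.446% in Zeb1 MSKO and 1.62% and 0.0716% in control. The 8-week libraries were above the 9-week ones in both genotypes, and the genotypes overlapped. Of 9 tested genes of the RANK ligand pathway none was called in the rule-defined cells by edgeR. In the epithelial set 1 of 9, Id2, was called higher, where 0.866% of all genes were. None of 16 tested targets of the progesterone and glucocorticoid receptors was called in any of the 3 cell sets; 3 were positive in the rule-defined cells, 12 among epithelial barcodes and 10 at equal depth.

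Of 27 other hormone-sensing genes outside the rule, 1 was called higher (Tph1) and 1 lower (Rcan1), with a median log2 fold change of 0.03, where 1.89% of all genes were called. Among epithelial barcodes 1 of 26 was higher (Tph1) and 3 were lower (Rcan1, Tox2 and Ptn), and at equal depth 3 of 25 were lower (Rcan1, Ptn and S100a6), where 1.52% and 0.283% of all genes were called. Ptn, the heparin-binding factor pleiotrophin, differed by −0.16 and −0.11 on the log2 scale in these sets. Tph1, the rate-limiting enzyme of serotonin synthesis outside the brain, had 1239 and 279.7 CPM in Zeb1 MSKO and 189 and 343 CPM in control in Pgr 2+ cells, against 1056 and 242 CPM in Zeb1 MSKO and 143 and 239 CPM in control in Pgr 0 cells, higher by 0.34 ± 0.05 SE (edgeR adjusted p = 0.004). At equal depth the difference was 0.26 and no longer passed (edgeR adjusted p = 0.28). None of 27 steroid, nuclear and hormone receptors, 24 nuclear receptor cofactors and 18 EGF receptor signalling genes was called by edgeR. Of 19 estrogen response genes 1 was called lower, Igfbp4 (−2.26), where 1.62% of all genes were. Among epithelial barcodes 4 of 18 were called higher, Igfbp4, whose direction thus turned, Igfbp5 (0.90), Bcl2 and Cxcl12, and 1 lower, Ctsd, beside the basal markers that were higher in that set. Of all genes there 0.866% were called higher and 0.654% lower. At equal depth none of 16 was called by edgeR. Of 26 Wnt pathway genes in the rule-defined cells 1 was called higher, Wnt5a, where 0.267% of all genes were.

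Stromal transcripts made the largest differences, and they came with barcodes of low keratin content. The 12 largest falls in Pgr 2+ cells by the naming rule ran from a log2 fold change of −4.18 (Mmp3) to −3.62 (Col3a1). They were Mmp3, Tnfaip6, Lum, Efemp1, Mfap5, Ccl2, Rarres2, Clec3b, Cxcl10, Fn1, Dpt and Col3a1, genes of the extracellular matrix, its remodelling and inflammation. Of 8 fibroblast markers 7 were called lower, where 1.62% of all genes were. The summed level of these markers was 1490.2 and 293 CPM in Zeb1 MSKO and 978 and 561 CPM in control in Pgr 2+ cells, against 6156 and 385 CPM in Zeb1 MSKO and 2889.8 and 695 CPM in control in Pgr 0 cells. Among Pgr 0 cells 75 (3.33%) had fewer than 10 UMIs of Krt8, Krt18 and Epcam together, against 9 Pgr 2+ cells (0.178%). By library the share of Pgr 0 cells was 13.0% and 0.566% in Zeb1 MSKO and 6.87% and 0.685% in control, so these barcodes came mainly from the 8-week libraries. These 75 had medians of 162 fibroblast marker UMIs, 25 Ly6a UMIs and 0 Prlr UMIs. Most of them thus had Ly6a and no Prlr among the panel genes, and they go against the label of luminal cells. Among epithelial barcodes the summed fibroblast level was 1179 and 279 CPM in Zeb1 MSKO and 824 and 550.5 CPM in control in Pgr 2+ cells, against 1283 and 274 CPM in Zeb1 MSKO and 808 and 526 CPM in control in Pgr 0 cells. None of 7 tested fibroblast markers was called there by edgeR. That set leaves out barcodes with 10 or more fibroblast marker UMIs, so both results follow in part from the choice. Of the 12 genes Cxcl10 alone was still called, at −2.30 (edgeR adjusted p = 0.026), and 1 Pgr 0 cell held 86 of the 87 Cxcl10 UMIs of control at 9 weeks.

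Markers of the other epithelial lineages differed with the cell set. In the rule-defined cells 3 of 10 luminal progenitor markers were called higher and 1 lower, and 2 of 12 basal markers higher (Tagln and Tpm2) and 2 lower (Vim and Sparc, which fibroblasts also make). Of all genes there 0.267% were called higher and 1.62% lower. The 12 largest rises by the naming rule were 3110079O15Rik, Chil1, Lce6a, Tagln, Lcn2, Gm16485, Samd5, Crym, Mfge8, Tpm2, Scnn1b and Net1, between 1.03 and 0.34 on the log2 scale. Among epithelial barcodes 5 of 9 luminal progenitor markers and 6 of 12 basal markers were called higher in Pgr 2+ cells, and none lower, where 0.866% of all genes were called higher. At equal depth and without called doublets none of 7 and none of 10 was called by edgeR, with medians of 0.07 and 0.01. Lcn2, an iron-siderophore carrier of luminal progenitors, had 129 and 209 CPM in Zeb1 MSKO and 98.7 and 115 CPM in control in Pgr 2+ cells, against 107 and 122 CPM in Zeb1 MSKO and 57.4 and 76.3 CPM in control in Pgr 0 cells, a difference of 0.63 ± 0.07 SE. At equal depth it was 0.13 (edgeR adjusted p = 0.62). Tagln, a smooth muscle protein of basal cells, was 0.66 higher on the log2 scale among the rule-defined cells and 0.24 at equal depth (edgeR adjusted p = 0.67). Depth matching alone left 13 higher calls of 10576 genes, and filtered barcodes without called doublets gave 22 of 11697. The part of depth against that of doublets in these markers was not tested.

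**Figure D4:**
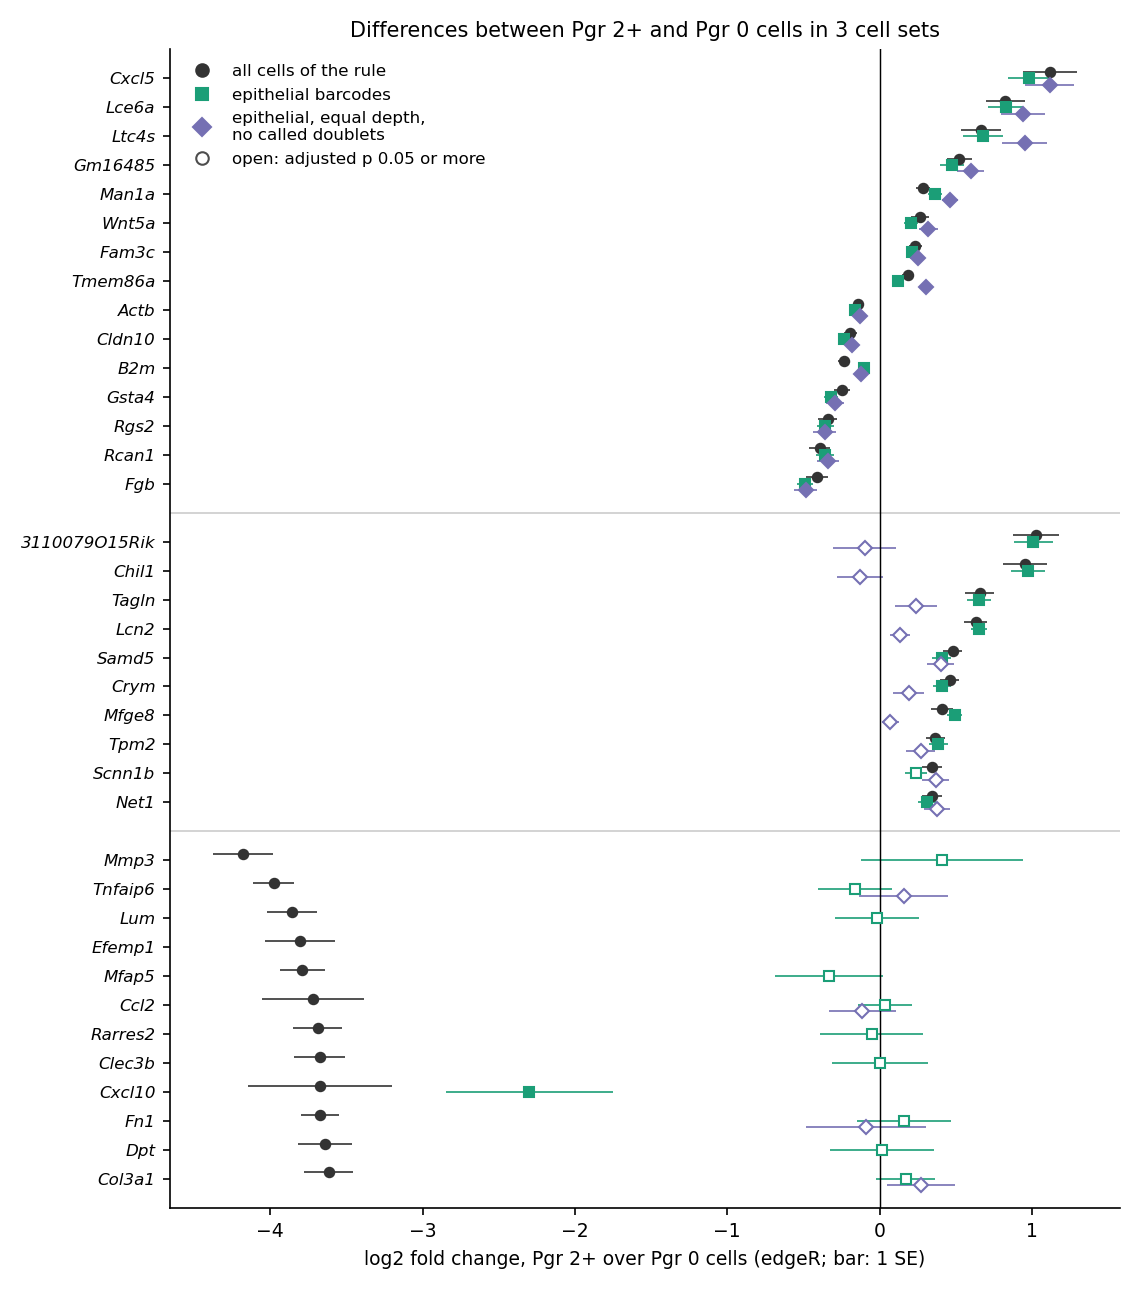
Log2 fold change of Pgr 2+ over Pgr 0 cells (x axis; bar, 1 SE) for the 15 genes called in all 3 cell sets (top) and the other largest rises (middle) and falls (bottom), with open symbols where the edgeR adjusted p was 0.05 or more. The stromal genes at the bottom lie between −4.18 and −3.62 in the rule-defined cells (circles) and near 0 among epithelial barcodes (squares) except Cxcl10, and no point is drawn where a gene was not tested. The epithelial set was chosen against fibroblast markers.

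Of 10 mitochondrially encoded genes 8 were called lower in Pgr 2+ cells, with a median of −0.17, where 1.62% of all genes were called lower, and all 10 among epithelial barcodes. At equal depth none of the 10 was called by edgeR and the median was −0.02. Of 16 MHC and antigen presentation genes 3 were called lower (H2-Q7, B2m and H2-K1) and none higher. H2-Q7, a non-classical class I molecule, had 37.3 and 34.3 CPM in Zeb1 MSKO and 37.8 and 35.4 CPM in control in Pgr 2+ cells, against 44.8 and 48.5 CPM in Zeb1 MSKO and 46.9 and 50.2 CPM in control in Pgr 0 cells, a difference of −0.41 ± 0.06 SE. Among epithelial barcodes 4 of 16 were called lower (H2-Q7, H2-K1, H2-D1 and B2m), where 0.654% of all genes were, and 15 of 16 were negative. At equal depth 1 of 13, B2m, was called lower, at −0.12, where 0.146% of all genes were.

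Between genotypes as labelled, Pgr 2+ cells gave no gene past the threshold. None of 12760 genes was called by edgeR (0%). There were 364 whose p before adjustment was under 0.05. DESeq2 made 24 calls, 11 upward and 13 downward in Zeb1 MSKO. In this comparison the libraries of the genotypes did not overlap for 14.2% of the genes on the higher and 13.4% on the lower side of Zeb1 MSKO, and at a mean of 10 CPM or more these shares were 10.9% and 15.9%. The genes named next, from the 8 with the smallest p in each direction among those without overlap, are values and not calls, and their directions rest on labels that the Zeb1 counts did not check.

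Among the higher ones, Wfdc12, a secreted protease inhibitor of the whey acidic protein family, had 39.8 and 19.3 CPM in the Zeb1 MSKO libraries, against 2.42 and 2.41 CPM in the control libraries (log2 fold change 3.60 ± 0.43 SE, edgeR adjusted p = 1). In Pgr 0 cells it had 51.3 and 39.6 CPM in the Zeb1 MSKO libraries, against 8.48 and 7.61 CPM in the control libraries. Between classes its summed level was lower in Pgr 2+ than in Pgr 0 cells (log2 fold change −0.98 ± 0.18 SE, edgeR adjusted p = 0.015; −0.85 and edgeR adjusted p = 0.24 at equal depth). Single Pgr 0 cells, however, held 85 of the 135 Wfdc12 UMIs of Zeb1 MSKO at 8 weeks, 47 of 51 of control at 8 weeks and 29 of 42 of control at 9 weeks. The share of cells with a Wfdc12 UMI was 5.72% and 4.83% in Zeb1 MSKO and 0.841% and 1.58% in control for Pgr 2+ cells, against 5.63% and 3.68% in Zeb1 MSKO and 0.573% and 1.14% in control for Pgr 0 cells. Hepacam2, an adhesion protein, had 28.6 and 75.2 CPM in the Zeb1 MSKO libraries, against 1.92 and 5.17 CPM in the control libraries, with a log2 fold change of 3.87 ± 0.70 SE. Fmo2, a flavin monooxygenase, had 36.7 and 31.3 CPM in the Zeb1 MSKO libraries, against 4.92 and 10.2 CPM in the control libraries. Hepacam2 and Fmo2 also varied within a genotype. Iqgap2 (1.31 ± 0.22 SE on the log2 scale), Gdpd1 (0.93 ± 0.19 SE), Hspa1b (1.07 ± 0.21 SE) and Rps26-ps1 (1.99 ± 0.24 SE) were also among them. Rps26-ps1 is a pseudogene whose reads can be shared with near-identical copies, so its value is uncertain.

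Among the lower ones, Sbp, spermine binding protein, had 0.476 and 0.778 CPM in the Zeb1 MSKO libraries, against 62.9 and 183 CPM in the control libraries, a log2 fold change of −7.55 ± 0.74 SE (edgeR adjusted p = 0.92). In Pgr 0 cells Sbp had 0.76 and 0.608 CPM in the Zeb1 MSKO libraries, against 148 and 132 CPM in the control libraries, and there it was the 1 gene that edgeR called, lower in Zeb1 MSKO, of 10991 (0.0091%; edgeR adjusted p = 0.043). In that class 13% of genes were higher and 13.8% lower without overlap. Cdh13, a cadherin without a transmembrane part, had 7.86 and 4.74 CPM in the Zeb1 MSKO libraries, against 30.6 and 69.2 CPM in the control libraries. Vtcn1, an inhibitory immune checkpoint ligand, had 13.2 and 11.04 CPM in the Zeb1 MSKO libraries, against 31.0 and 41.5 CPM in the control libraries. In Pgr 0 cells Vtcn1 had 14.4 and 10.4 CPM in the Zeb1 MSKO libraries, against 31.1 and 44.2 CPM in the control libraries. Alox15, a lipoxygenase, had 14.3 and 9.25 CPM in the Zeb1 MSKO libraries, against 45.2 and 36.0 CPM in the control libraries. Fxyd6, a sodium pump modulator, had 47.1 and 43.3 CPM in the Zeb1 MSKO libraries, against 99.5 and 115 CPM in the control libraries. Pir, Il18r1 and Phkb differed by −1.33 ± 0.22 SE, −1.29 ± 0.24 SE and −0.96 ± 0.19 SE. With age as a block, edgeR called 2 genes, Hepacam2 and Sbp (edgeR adjusted p = 0.043 and 0.037), but none of 12625 among epithelial barcodes, where 590 had an unadjusted p under 0.05. The Sbp UMIs of control Pgr 2+ cells, 1509 at 8 weeks and 4247 at 9 weeks, lay in 90 and 115 cells. Those of control Pgr 0 cells lay in 22 and 31 cells, and 1 cell held 719 of 889 at 8 weeks and 341 of 727 at 9 weeks.

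**Figure D5:**
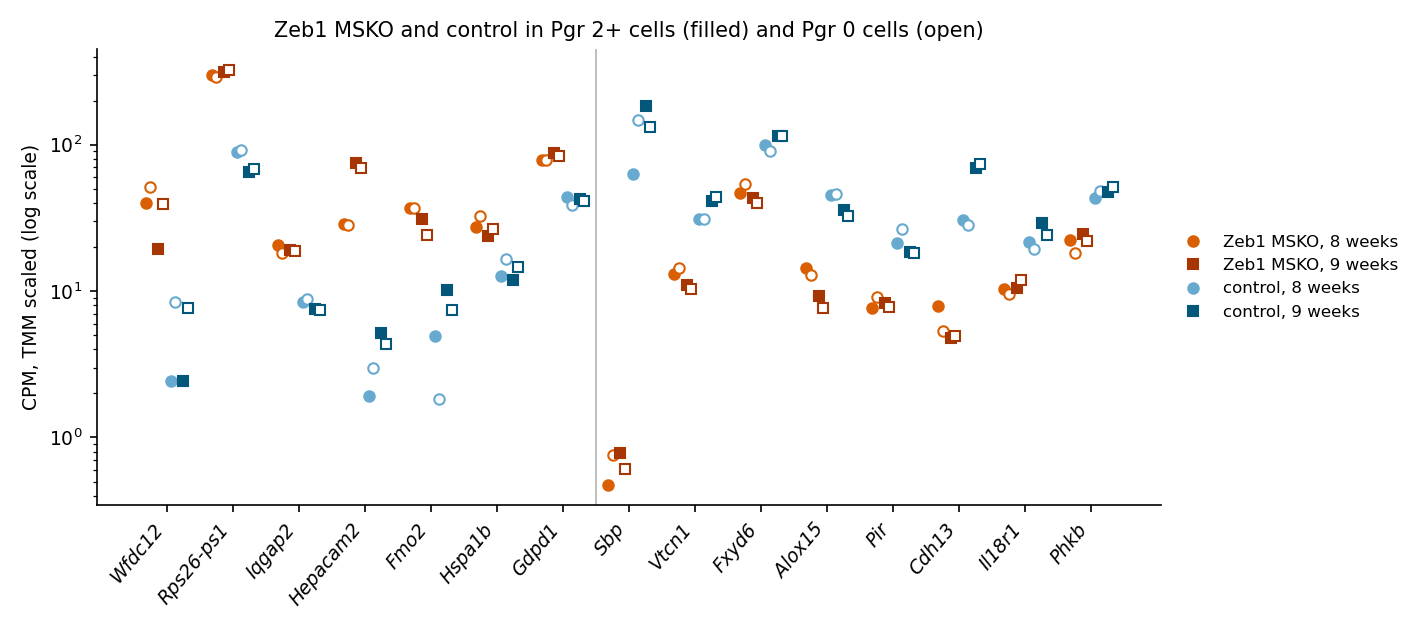
Level of the 15 genes named for the genotype comparison (y axis, TMM-scaled CPM on a log scale) in Pgr 2+ cells (filled) and Pgr 0 cells (open), 1 symbol per library, with the genes higher in Zeb1 MSKO left of the line and those lower right of it. Sbp in Pgr 2+ cells lies at 0.476 and 0.778 CPM in Zeb1 MSKO and 62.9 and 183 CPM in control, and filled and open symbols of 1 library mostly lie close together.

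Gene groups gave the same picture of differences without calls. Of 16 MHC and antigen presentation genes all had a negative log2 fold change in Zeb1 MSKO, with a median of −0.47 against 0.02 over all genes, and 8 were lower without overlap, where 13.4% of all genes were. Psmb8, a subunit of the immunoproteasome, had 203 and 179.9 CPM in the Zeb1 MSKO libraries, against 285 and 394 CPM in the control libraries. Tap2, of the peptide transporter, had 138 and 84.5 CPM in the Zeb1 MSKO libraries, against 205 and 236 CPM in the control libraries. Among epithelial barcodes 12 of 16 were negative with a median of −0.33. In Pgr 0 cells 12 of 13 were negative, with a median of −0.45. Of 14 heat shock chaperones 11 were positive, median 0.35, and 8 were higher without overlap, where 14.2% of all genes were. Immediate early and dissociation genes had 18 of 23 positive (median 0.26, 7 higher without overlap), and mitochondrially encoded genes 9 of 10 (median 0.19, 4 higher without overlap), and their part in the chaperone difference was not tested. Hspa1a had 398 and 149.7 CPM in the Zeb1 MSKO libraries, against 136 and 102 CPM in the control libraries.

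Of 23 S phase genes 21 were positive, with a median of 0.63, and 11 were higher without overlap, against 52.5% positive and 14.2% without overlap over all genes. Their summed level was 240.0 and 378 CPM in Zeb1 MSKO and 266 and 210.2 CPM in control, so at 8 weeks the sum was lower in Zeb1 MSKO. Mcm5, a subunit of the replicative helicase, had 3.17 and 11.4 CPM in the Zeb1 MSKO libraries, against 1.71 and 0.517 CPM in the control libraries, and Rrm1, of ribonucleotide reductase, 6.90 and 7.78 CPM in the Zeb1 MSKO libraries, against 4.003 and 3.15 CPM in the control libraries. The median log2 ratio was 0.18 at 8 weeks and 0.91 at 9 weeks, so the 9-week pair held most of it. The Zeb1 MSKO library at 9 weeks stood apart in other lists too. Its 20 ribosomal protein genes summed to 112682 CPM, against 77240 to 84291 in the other 3 libraries, and the 6 luminal keratins to 13406 CPM, against 23172 to 25346. The part of these differences in that of the S phase genes was not tested. In Pgr 0 cells 19 of 21 S phase genes were positive with a median of 0.58. Of 27 Wnt pathway genes 19 were positive, with 10 higher and 3 lower without overlap and a median of 0.55. Of the effector list 7 of 9 were positive with a median of 0.96, but 2 were free of overlap, and Wnt4 had 89.3 and 72.9 CPM in the Zeb1 MSKO libraries, against 122 and 55.4 CPM in the control libraries. Basal markers had 11 of 12 positive, with median ratios (log2) that were 1.23 for the 8-week pair and −0.02 for the 9-week pair, and fibroblast markers 8 of 8, with 1.06 and 0.13. Their part in the genotype differences was not tested.

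The genotype difference itself differed between Pgr 2+ and Pgr 0 cells for 5 of 11981 genes (0.0417%), 2 with a higher (0.0167%) and 3 with a lower (0.025%) log2 difference in Pgr 2+ cells. These were Gm4847 (8.03 ± 0.52 SE), Jchain (7.87 ± 0.54 SE), S100g (−4.86 ± 0.56 SE), Ctla2a (−6.77 ± 0.63 SE) and Glycam1 (−4.14 ± 0.35 SE). In at least 1 of the sums behind each value, most UMIs lay in 1 cell. One Pgr 2+ cell of control at 8 weeks held 3703 of the 3935 Glycam1 UMIs of its class, 94.1%. One Pgr 0 cell of the same library held 2992 of 4620 Jchain UMIs, 64.8%, whereas the 119 Jchain UMIs of its Pgr 2+ cells lay in 113 cells. The other 3 are described with the flagged results.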

How the data were processed

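The deposited data are 1 matrix of UMI counts per gene and barcode for all 4 libraries, told apart by the barcode suffix that the labels give; per the submitters' processing notes the authors used Cell Ranger 2.1.0 and mm10 for them, and no other step is given in the sources used here. Coordinates are from GENCODE vM21, matched by gene ID. For the panels, counts were scaled to 10000 per barcode, log2-transformed after adding 1 and standardised over all barcodes. Counts were then summed per library and class. edgeR 4.0.16 (R 4.3.3) gave the main tests, with its default expression filter, TMM and Benjamini-Hochberg adjustment at 0.05 across all genes tested; DESeq2 1.42.0 was an alternative. The depth per library was 80853204 to 122122443 UMIs. The code was tested on simulated data.

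The 29 genes of the rule were kept out of the tests between Pgr 2+ and Pgr 0 cells, of the interaction and of the gene lists. They were not kept out of the tests and overlap shares between genotypes. Pgr 2+ and Pgr 0 cells were compared with the library as a block, and genotypes in Pgr 2+ cells without a block, with the interaction from 1 model of both classes. Doublets were scored with Scrublet in scanpy 1.11.5 at an expected rate of 8% and left out in alternatives only. Named genes were the 12 largest called changes each way at 10 CPM or more and in 1 direction in all 4 libraries, the 8 smallest genotype p-values each way without overlap, and the called interaction genes, besides listed genes that were called or have a textbook role. The cells, rules and 32 gene lists were chosen with earlier results of these data known. The epithelial and equal-depth sets were added after seeing the data, as were the 15 genes common to all sets. One gene that the rule names for the genotype comparison is not reported here. Intervals cover counting error only.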

Additional observations from a re-analysis of the deposited data

Results flagged for a closer look

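The Pgr 2+ share moved in opposite directions at the 2 ages. The Zeb1 MSKO share minus the control share was 3.66 percentage points at 8 weeks and −17.8 points at 9 weeks. With 1 library per genotype and age this difference was not tested.

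The interaction test of edgeR called 5 genes whose genotype difference was not the same in Pgr 2+ and Pgr 0 cells. Gm4847 had an interaction log2 value of 8.03 (edgeR adjusted p = 0.0023). In Pgr 2+ cells of Zeb1 MSKO at 8 weeks its 805 UMIs lay in 35 cells, and in Pgr 0 cells of control at 9 weeks 28 of 43 UMIs lay in 1 cell. Jchain, the immunoglobulin joining chain, had 7.87 (edgeR adjusted p = 0.0019), with 2992 of 4620 UMIs in 1 Pgr 0 cell of control at 8 weeks. S100g, a calcium-binding protein, had −4.86 (edgeR adjusted p = 0.03). Single Pgr 2+ cells held 144 of 165 S100g UMIs in control at 9 weeks and 91 of 143 in control at 8 weeks. Ctla2a, a cathepsin inhibitor, had −6.77 (edgeR adjusted p = 0.0066), with 144 of 201 UMIs in 1 Pgr 2+ cell of control at 8 weeks and 42 of 44 in 1 Pgr 0 cell of Zeb1 MSKO at 8 weeks. Glycam1, a milk mucin, had −4.14 (edgeR adjusted p = 0.0035), with 3703 of 3935 UMIs in 1 Pgr 2+ cell of control at 8 weeks.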

How the results depend on the processing

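Between Pgr 2+ and Pgr 0 cells the 226 calls became 719 with no filter on low counts, 147 in depth-matched cells, 145 when Pgr-positive cells were defined by rate, 0 with no library block, 29 in the equal-depth set, and 64 and 1 with DESeq2 in the epithelial and equal-depth sets. Leaving out 1 library in turn gave 92 (without control at 8 weeks) to 306 calls in the rule-defined cells, 91, 102, 127 and 216 in the epithelial set without control at 8 weeks, Zeb1 MSKO at 9 weeks, control at 9 weeks and Zeb1 MSKO at 8 weeks, and 16 to 42 at equal depth, with 28 both without control at 9 weeks and without Zeb1 MSKO at 9 weeks. Of the calls, 14.2% were higher in the rule-defined cells and 57.0% in the epithelial set. Between genotypes, DESeq2 gave 24 calls and 26 in the epithelial set, and leaving out 1 library gave 0 to 1, and 0 to 3 in the epithelial set. The age labels serve as replicate numbers and do not establish pairing: the 9-week against 8-week log2 ratios of the genotypes correlated at r = 0.329 over 6911 genes, and with age as the replicate block 2 genes were called, on 1 residual degree of freedom, and 0 in the epithelial set. The interaction gave 2 calls with DESeq2, with the panel without Pgr, with filtered barcodes, with 3 or more Pgr UMIs, in depth-matched cells and at equal depth, 43 with no filter, and 3 to 24 without 1 library.

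Reversed values were these. 3110079O15Rik had −0.016 in filtered barcodes, −0.10 at equal depth and −0.15 there with DESeq2, and Chil1 −0.13 and −0.18 at equal depth. Tpm2 had −0.24 with the panel without Pgr. Among epithelial barcodes, with edgeR and then DESeq2, Mmp3 had 0.41 and 0.50, Ccl2 0.037 and 0.15, Fn1 0.16 and 0.12, Dpt 0.015 and 0.10, and Col3a1 0.17 and 0.21; Clec3b had 0.00191 with edgeR. At equal depth Tnfaip6 had 0.16 and 0.28, Col3a1 0.27 and 0.28, and Ccl2 0.037 with DESeq2. Jchain had −0.29 with the panel without Pgr. Glycam1 had 0.56 in filtered barcodes, 0.13 at 3 or more Pgr UMIs, 0.16 among epithelial barcodes and 0.68 at equal depth. These sets hold other cells; the cause was not tested. The difference in Pgr 2+ share was −17.1 to 2.95 points when 1 library was left out, positive without Zeb1 MSKO at 9 weeks, and −0.917 to −7.52 points in the other alternatives. Low counts limit the precision for genes such as Tnfsf11, with 1 to 38 UMIs in the Pgr 2+ cells of a library.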

Other observations

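At equal depth and without called doublets or non-epithelial barcodes, 14 genes were called beyond the 15 common to all cell sets. Higher in Pgr 2+ cells were Acta1, of which 1 Pgr 2+ cell of control at 8 weeks held 381 of 427 UMIs (89.2%), P4ha2 (a collagen prolyl hydroxylase, 0.44 on the log2 scale), Mycl (a Myc family factor, 0.26), Zmiz1 (a coactivator of nuclear receptors, 0.24), Mtss1 and F3 (tissue factor, 0.18). Lower were Sbp, of which 1 Pgr 0 cell of control at 8 weeks held 719 of 889 UMIs (80.9%), Fgg (the fibrinogen gamma chain, −0.39), Id3 (an inhibitor of helix-loop-helix factors, −0.31), Tuba4a, Wfdc2, Phyh, Ptn and S100a6. Fgg and Fgb, chains of 1 protein, were thus both lower in Pgr 2+ cells. These genes were named after their values were seen.

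Cycling hormone-sensing cells, left out above, were rare among cells with 2 or more Pgr UMIs: 0.902% and 1.75% in Zeb1 MSKO, against 0.706% and 0.428% in control. These were 7 and 24 cells in Zeb1 MSKO and 11 and 6 in control. The means were 1.33% in Zeb1 MSKO and 0.567% in control, and the genotypes did not overlap (2-sided exact permutation p = 0.33, the smallest that 2 against 2 libraries allow). Among cells with no Pgr UMI the shares were lower, 0.431% and 1.21% in Zeb1 MSKO and 0.190% and 0% in control, also without overlap. Cycling cells were told by a raw UMI count, and the part of depth in these shares was not tested.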
